A study of Saccharomyces cerevisiae with 6 samples.

Results

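The 60S ribosomal subunit assembly factors examined here are 42 protein-coding genes of Saccharomyces cerevisiae, chosen by their known role in building or exporting the large ribosomal subunit and taken by identifier from a table of 10239 loci. They were read in 3 libraries from root cells and 3 libraries from aerial cells of 3-day-old colony biofilms. Root cells are those of the part that invades the agar, mainly pseudohyphal, and aerial cells are the ovoid cells above it. By the study's microscopy, cells with root-type proteins also lay in cavities of the aerial part, and aerial-type proteins also occurred at root tips. All colonies were of BR-F, a wild diploid strain with no introduced mutation, grown at 28 °C on a membrane over medium with 3% glycerol, 1% yeast extract and 0.3% agar. Both cell types came from the same kind of colony, so neither is an untreated control. The replicates are independent biological samples, each a pool of many colonies. Counts summed to between 15634538 and 16461048 in the root libraries and between 13764726 and 17095539 in the aerial libraries. All 42 genes passed the filter on low counts, and the rarest of them still had 71 counts in its poorest library. The library of aerial replicate 2 stood apart from the other aerial libraries for these genes, and results are given with and without it.

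Ribosome assembly begins in the nucleolus, where RNA polymerase I makes a long precursor that is cut, modified and folded while ribosomal proteins bind to it. The precursors of the large subunit carry a changing set of assembly factors: RNA helicases and GTPases that drive rearrangements, scaffold proteins that hold folded domains, proteins that occupy the place of a later ribosomal protein, and export adaptors that leave the particle only in the cytoplasm. In this yeast the genes of these factors are part of a large regulon that is known to be transcribed together in growing cells and switched off together when nutrients run short. Many of their promoters carry the PAC motif, to which the repressors Dot6 and Tod6 bind, and the RRPE motif, to which the repressor Stb3 binds.

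The windows from 250 bases before to 50 bases after the start codon were read from the R64 genome for these genes, and 6 are shown because they cover the genes that the values below turn on and the 2 kinds of promoter that lack a motif. They are written 5′ to 3′ on the coding strand. Matches to PAC (GATGAG or its reverse complement CTCATC) and RRPE (AAAAATTT or its reverse complement AAATTTTT) are in capitals. YTM1 (YOR272W, chrXV:832563-832862, plus strand) had the largest fold change, NOP16 (YER002W, chrV:156553-156852, plus strand) had the smallest, NOP7 (YGR103W, chrVII:695167-695466, plus strand) is the scaffold partner of YTM1, and TIF6 (YPR016C, chrXVI:593020-593319, minus strand) was the gene whose 3 aerial libraries varied least. DBP10 (YDL031W, chrIV:393967-394266, plus strand) has PAC without RRPE, and NSA1 (YGL111W, chrVII:299728-300027, plus strand) has RRPE without PAC.
YTM1: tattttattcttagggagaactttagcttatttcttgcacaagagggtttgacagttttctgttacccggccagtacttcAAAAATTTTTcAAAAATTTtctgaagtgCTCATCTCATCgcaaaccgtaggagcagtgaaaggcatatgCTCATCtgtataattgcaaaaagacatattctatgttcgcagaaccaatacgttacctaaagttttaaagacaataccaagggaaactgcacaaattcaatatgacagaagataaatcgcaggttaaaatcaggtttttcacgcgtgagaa
NOP7: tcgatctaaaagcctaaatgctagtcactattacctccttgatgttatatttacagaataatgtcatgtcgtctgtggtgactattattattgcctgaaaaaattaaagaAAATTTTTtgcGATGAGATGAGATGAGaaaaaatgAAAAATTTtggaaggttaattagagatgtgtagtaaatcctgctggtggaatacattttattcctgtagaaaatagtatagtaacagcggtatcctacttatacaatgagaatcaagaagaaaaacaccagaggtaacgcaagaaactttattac
NOP16: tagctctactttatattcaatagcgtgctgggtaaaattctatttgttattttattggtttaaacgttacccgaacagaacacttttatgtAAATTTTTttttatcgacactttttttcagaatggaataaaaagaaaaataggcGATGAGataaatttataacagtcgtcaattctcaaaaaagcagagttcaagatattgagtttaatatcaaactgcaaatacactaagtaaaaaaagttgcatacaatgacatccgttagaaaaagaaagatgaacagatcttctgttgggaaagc
TIF6: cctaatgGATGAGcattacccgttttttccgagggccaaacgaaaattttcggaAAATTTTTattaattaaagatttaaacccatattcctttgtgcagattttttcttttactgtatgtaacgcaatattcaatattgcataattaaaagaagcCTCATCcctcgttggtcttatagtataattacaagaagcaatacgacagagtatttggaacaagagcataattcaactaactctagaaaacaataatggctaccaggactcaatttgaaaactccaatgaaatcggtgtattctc
DBP10: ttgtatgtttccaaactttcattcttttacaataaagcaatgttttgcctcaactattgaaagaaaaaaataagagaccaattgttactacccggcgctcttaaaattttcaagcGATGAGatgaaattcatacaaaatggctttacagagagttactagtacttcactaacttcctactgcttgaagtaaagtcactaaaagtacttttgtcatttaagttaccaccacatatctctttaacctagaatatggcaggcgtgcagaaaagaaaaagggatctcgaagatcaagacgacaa
NSA1: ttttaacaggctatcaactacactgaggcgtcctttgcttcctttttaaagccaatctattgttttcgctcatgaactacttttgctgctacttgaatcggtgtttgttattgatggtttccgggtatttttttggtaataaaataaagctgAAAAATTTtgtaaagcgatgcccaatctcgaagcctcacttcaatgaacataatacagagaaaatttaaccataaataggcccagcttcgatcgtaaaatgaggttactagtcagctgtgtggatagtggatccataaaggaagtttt

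In these windows PAC stood in 41 of the 42 genes (97.6%), against 20.4% of the 6001 nuclear protein-coding windows of the same length. RRPE stood in 37 genes (88.1%), against 14.1% of all windows, and both motifs stood in 36 (85.7%), against 5.63%. The 5 genes without RRPE were DBP6, DBP10, MAK5, NOC3 and RRP1, and NSA1 alone had no PAC. Matches can overlap. In NOP7 the letters of 3 PAC matches run into each other 129, 124 and 119 bases before the start codon, and in YTM1 an RRPE match on each strand shares letters 170 and 168 bases before it. The 73 PAC matches of the 42 genes had a median distance of 119 bases from the start codon and the 55 RRPE matches a median of 147 bases. A range of 80 to 180 bases before the start codon, chosen after these distances had been seen, held a PAC match in 37 of the genes (88.1%), against 8.58% of all windows. The same range held an RRPE match in 34 (81%), against 8.55% of all windows.

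**Figure D1:**
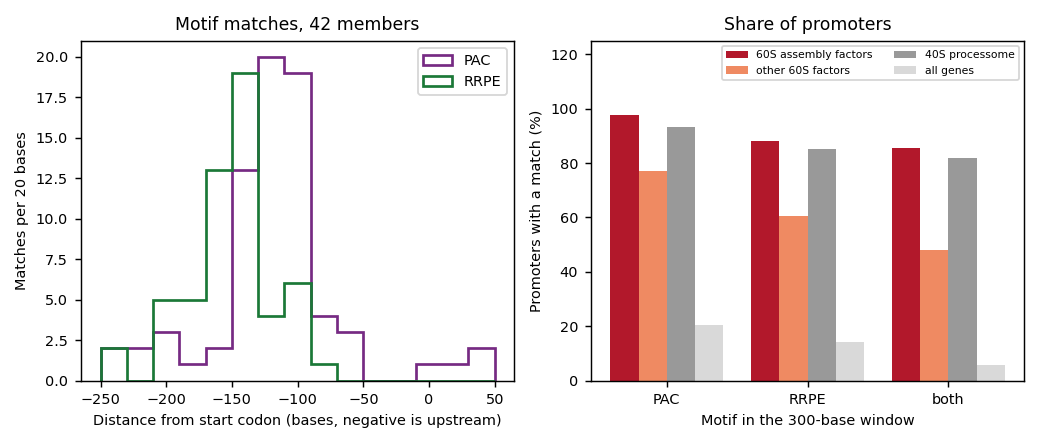
Left, number of PAC and RRPE matches in the 42 assembly factor windows per 20 bases, by distance from the start codon in bases. Right, percentage of windows of 300 bases with PAC, RRPE or both for the 42 assembly factors, 48 other 60S factors, 61 factors of the 40S processome and all 6001 genes. Most matches lie between 80 and 180 bases upstream, and both motifs occur together in 85.7% of the assembly factor windows, against 5.63% of all.

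The question put to the counts was whether root and aerial cells differ in the transcripts of these factors. All 42 genes had a higher mean level in root cells. The log2 fold change, root over aerial, had a median of 1.30 and ran from 0.74 for NOP16 to 1.88 for YTM1, and the standard errors lay between 0.19 and 0.57. With edgeR's quasi-likelihood test and Benjamini-Hochberg adjustment over all 7971 loci tested, 28 of the 42 were called higher in root cells, which required a 2-fold difference and an adjusted p under 0.05, against 10.8% of all loci tested and 12.1% of protein-coding loci. The same number, 28, passed the adjusted p with no fold cutoff, against 15.9% of all loci. By edgeR 0 of the 42 were called lower, against 9.2% of all loci, and DESeq2 also called 0 lower. At an unadjusted p under 0.05, 37 of the 42 were higher in root cells, against 21.4% of all loci. In 36 of the 42 every root library lay above every aerial library, against 25.1% of all loci tested. Over all loci tested the median was -0.03. In these bulk libraries, fewer cells that make a transcript and less of it per cell cannot be told apart.

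Aerial replicate 2 did not lie with the other aerial libraries for these genes. The median level of the 42 genes was 210, 227 and 199 CPM (counts scaled to a common library size with TMM factors) in root replicates 1, 2 and 3, against 51.0, 157 and 53.9 CPM in aerial replicates 1, 2 and 3. Summed over the 42 genes, the level was 11084, 11571 and 10740 CPM in the root libraries, against 2834, 7538 and 2655 CPM in the aerial libraries. The root libraries were thus close to each other, and aerial replicate 2 lay between them and the 2 other aerial libraries. The coefficient of variation over 3 libraries had a median of 6.04% in root cells and 69.1% in aerial cells. Aerial replicate 2 was the highest aerial library for 41 of the 42 genes, within the range of the root libraries for 5 (EBP2, CIC1, NOP15, SSF1 and DBP10) and above all of them for NOP16. Of all 7971 loci tested, it was the highest aerial library for 3105, within the root range for 1381 and above that range for 3279. Over all loci tested, the root-mean-square difference in log2 CPM was 0.806 between aerial replicates 1 and 2. It was 0.635 between aerial replicates 2 and 3 and 0.622 between aerial replicates 1 and 3. The study's text names aerial replicate 3 as slightly different in the types of loci its reads mapped to, though similar by its t-tests.

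Without aerial replicate 2, all 42 genes were called higher in root cells by the same test, against 13% of all loci and 15.2% of protein-coding loci tested in that fit. This library was singled out on the values of these same genes. Larger fold changes and more calls without it, here and for single genes below, are therefore no independent support. None was called lower, against 10.5% of all loci. The median log2 fold change was then 2.06, with a range from 1.02 for TIF6 to 2.77 for MRT4. Leaving out any other library lowered the number called, to 15 without aerial replicate 1, 9 without aerial replicate 3, 10 without root replicate 1, 10 without root replicate 2 and 13 without root replicate 3. Whichever library was left out, 8 genes stayed called, namely NUG1, SPB4, NMD3, HAS1, NOG2, YTM1, NIP7 and TIF6. The share of all loci called in these other fits is not given here. A loss of calls over all loci cannot be told apart from one particular to these genes.

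**Figure D2:**
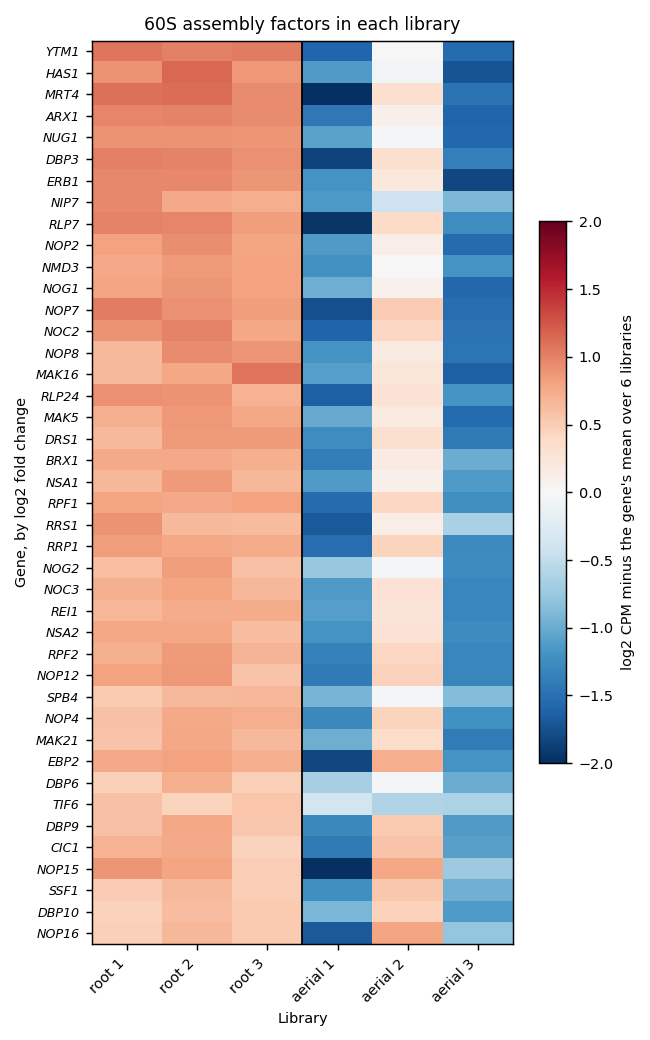
Levels of the 42 assembly factors (rows, ordered by log2 fold change) in the 3 root and 3 aerial libraries (columns), as log2 CPM minus the mean of the gene over 6 libraries. The root columns are above the mean for all 42 genes, aerial replicates 1 and 3 are below it for all 42, and aerial replicate 2 lies above it for 33.

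The same library was set beside gene lists with other roles. The 76 RPL genes, which encode the proteins of the large subunit itself, summed to 42425, 28842 and 29988 CPM in root replicates 1, 2 and 3, against 12470, 13654 and 11401 CPM in aerial replicates 1, 2 and 3. Relative to the mean of the 2 other aerial libraries on the log2 scale, aerial replicate 2 had a median difference of 1.58 over the 42 assembly factors and of 0.27 over the RPL genes. RPL genes with near-identical copies are uncertain singly. Aerial replicate 2 therefore had a transcript level between the cell types for the assembly factor genes, and an aerial transcript level for the RPL genes in sum. Protein levels were not measured in these libraries.

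Markers of the cell types were also read in each library. Those that the study picked on these same libraries are no independent check of any one library. Of genes that the study picked on these libraries, the 4 root-marked ones (ARG1, HXK2, GDH1 and AGP1) summed to 7341, 6043 and 7260 CPM in root replicates 1, 2 and 3, against 1044, 1221 and 599 CPM in aerial replicates 1, 2 and 3. The aerial-marked RGI2 and SIP18 summed to between 434 and 738 CPM in root libraries, against 2655, 2253 and 4961 CPM in the aerial ones. The 12 genes of meiosis and sporulation that were looked up were all called lower in root cells, against 9.2% of all loci. Without aerial replicate 2, 11 of the 12 were, against 10.5% of all loci. Their transcripts need not mark cells that form spores, since the study's text describes spores as rare in colonies of this strain. They summed to 2990, 1851 and 3554 CPM in the root libraries, against 4645, 16287 and 9894 CPM in aerial replicates 1, 2 and 3. Each of the 12 was higher in aerial replicate 2 than in every root library, as were 3279 of all 7971 loci tested. SPS4 made up most of these sums and was the only one of the 12 whose groups overlapped. Without it the other 11 summed to 597, 415 and 694 CPM in the root libraries, against 1856, 3245 and 2722 CPM in aerial replicates 1, 2 and 3, and aerial replicate 2 was the highest aerial library for 4 of the 11. No gene of these lists was at 0 in any library. The part of cells with these transcripts in the level of the assembly factors was not tested.

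**Figure D3:**
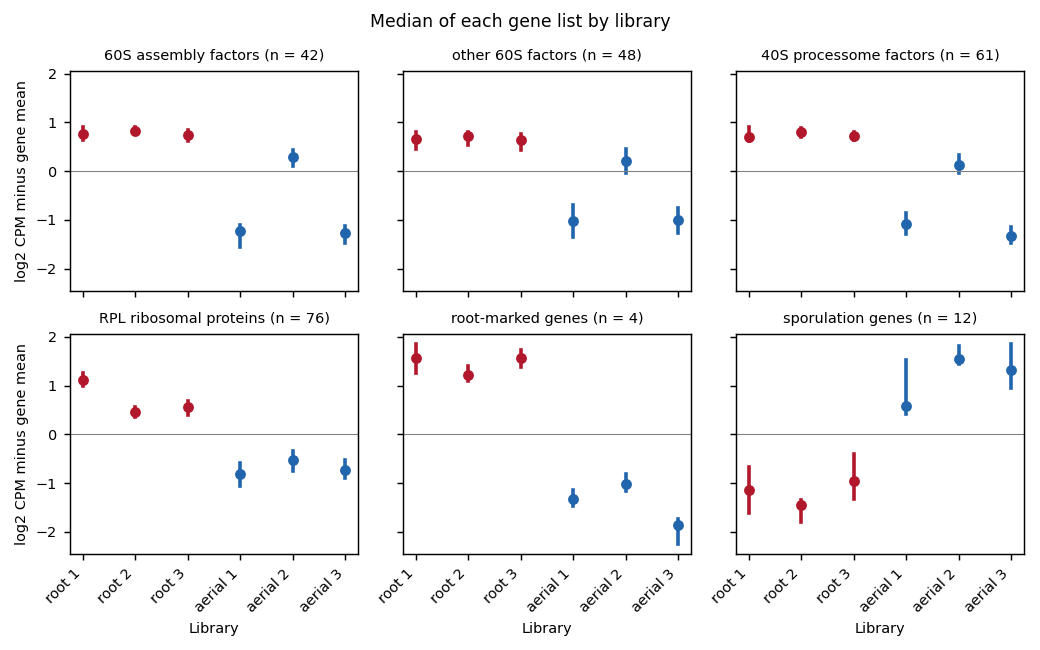
Median (point) and interquartile range (line) of log2 CPM minus the gene's mean over 6 libraries, in each root and aerial library, for 6 gene lists. Aerial replicate 2 stands at 0.28 for the 42 assembly factors, at 0.22 for 48 other 60S factors and at 0.12 for 61 factors of the 40S processome, against -0.52 for the RPL genes and -1.03 for the 4 root-marked genes.

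Among the factors that act first, NOP2 encodes the methyltransferase of a cytosine of the large rRNA, NOP4 and NOP12 encode RNA-binding proteins needed for early precursors, and NOP8 and NIP7 encode proteins that bind each other. NOP2, NOP8 and NIP7 were called higher in root cells, and the median over the 5 genes was 1.46. NIP7 (chromosome XVI, 153495 to 154040) was at 136, 118 and 116 CPM in root libraries, against 31.5, 52.6 and 37.6 CPM in aerial libraries, a 3.04-fold difference (standard error 0.22 on the log2 scale, edgeR adjusted p = 0.0014). Its groups did not overlap, and the aerial libraries lay closer together than for most of the other genes. NOP2 was at 452, 495 and 450 CPM in root libraries, against 119, 286 and 89.3 CPM in aerial libraries, a 2.83-fold difference (standard error 0.40 on the log2 scale, edgeR adjusted p = 0.0202). NOP4 and NOP12 were at 1.14 and 1.22 and were not called (edgeR adjusted p = 0.0713 and 0.0719).

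Nop7, Erb1 and Ytm1 form the trimer known in mammals as PeBoW, which is needed to remove the first internal spacer from the large-subunit precursor. YTM1 (chromosome XV, 832813 to 834195) was at 202, 193 and 198 CPM in root libraries, against 32.1, 95.5 and 32.9 CPM in aerial libraries, a 3.69-fold difference (standard error 0.40 on the log2 scale, edgeR adjusted p = 0.00862). ERB1 was at 394, 397 and 375 CPM in root libraries, against 88.4, 235 and 57.6 CPM in aerial libraries (log2 fold change 1.61, standard error 0.45, edgeR adjusted p = 0.025). NOP7 (chromosome VII, 695417 to 697234) was at 634, 591 and 560 CPM in root libraries, against 92.2, 444 and 109 CPM in aerial libraries. Every root library was above every aerial library for all 3 genes of the trimer, but NOP7 missed the threshold (log2 fold change 1.47, standard error 0.54, edgeR adjusted p = 0.0663). Without aerial replicate 2 the log2 fold changes of YTM1, ERB1 and NOP7 were 2.60, 2.41 and 2.57.

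Rlp7, Cic1 and Nop15 join the particle beside this trimer. RLP7, whose product resembles a ribosomal protein, was called (log2 fold change 1.53, standard error 0.50, edgeR adjusted p = 0.0458). NOP15 was at 145, 136 and 111 CPM in root libraries, against 17.3, 135 and 47.7 CPM in aerial libraries, and had the widest standard error of the 42 genes (log2 fold change 0.97, standard error 0.57, edgeR adjusted p = 0.226). CIC1 was at 315, 329 and 268 CPM in root libraries, against 72.5, 288 and 91.7 CPM in aerial libraries (log2 fold change 1.01, edgeR adjusted p = 0.126). For NOP15 and CIC1 aerial replicate 2 was inside the range of the root libraries, and the 2 other aerial libraries were below it. Without aerial replicate 2 both were called, with log2 fold changes of 2.01 and 1.89.

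The 8 DEAD-box RNA helicases were all higher in root cells on average, and 6 were called, with a median log2 fold change of 1.25 over the 8. HAS1 (chromosome XIII, 850074 to 851591), whose product acts on both subunits, was at 388, 461 and 381 CPM in root libraries, against 95.7, 200.0 and 63.4 CPM in aerial libraries. The log2 fold change was 1.78 (standard error 0.38, edgeR adjusted p = 0.00901). DBP3, known for its part in cutting the first internal spacer, was at 403, 399 and 380 CPM in root libraries, against 55.6, 251 and 78.3 CPM in aerial libraries, a 3.07-fold difference (edgeR adjusted p = 0.0346). MAK5, DRS1, SPB4 and DBP6 were called with log2 fold changes of 1.39, 1.35, 1.16 and 1.06. DBP9 (1.02) and DBP10 (0.88) were not called, with edgeR adjusted p of 0.106 and 0.113. DBP10 was at 297, 333 and 311 CPM in root libraries, against 115, 297 and 98.7 CPM in aerial libraries, so that aerial replicate 2 reached the lowest root library.

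All 3 GTPases were called. NOG1, whose product stays on the particle from the nucleolus to the cytoplasm, was at 1111, 1185 and 1126 CPM in root libraries, against 328, 684 and 217 CPM in aerial libraries (log2 fold change 1.48, standard error 0.39, edgeR adjusted p = 0.02). NUG1 was at 375, 374 and 370 CPM in root libraries, against 95.4, 196 and 68.0 CPM in aerial libraries (log2 fold change 1.64, standard error 0.36, edgeR adjusted p = 0.0093). NOG2, whose product holds a checkpoint before export, was at 331, 390 and 326 CPM in root libraries, against 129, 214 and 90.8 CPM in aerial libraries (log2 fold change 1.27, standard error 0.30, edgeR adjusted p = 0.0134). The groups did not overlap for any of these genes, and NOG2 is the only one of the 42 genes with 2 coding exons, its intron holding the gene of a small nucleolar RNA.

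The Nsa1 module, made of the products of NSA1, RRP1, RPF1 and MAK16, binds the solvent side of the early particle. NSA1 and MAK16 were called, with log2 fold changes of 1.32 and 1.44, and RPF1 and RRP1 had 1.29 and 1.28 with edgeR adjusted p of 0.0554 and 0.06. Every root library was above every aerial library for each of these 4 genes. Without aerial replicate 2 all 4 were called, at 1.86 to 2.19.

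Rpf2 and Rrs1 bring the 5S rRNA with its ribosomal proteins to the particle, and Rpf2, Brx1 and Ssf1 share the Brix domain. RRS1 was at 202, 171 and 169 CPM in root libraries, against 33.9, 119 and 69.3 CPM in aerial libraries, and was called (log2 fold change 1.28, standard error 0.38, edgeR adjusted p = 0.0323). RPF2 was at 151, 166 and 147 CPM in root libraries, against 36.1, 122 and 37.4 CPM in aerial libraries (log2 fold change 1.25, standard error 0.43, edgeR adjusted p = 0.0558). The groups of both genes were apart, and only RRS1 passed the threshold; the difference between the 2 genes was not tested. BRX1 was called at 1.32.

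SSF1 is uncertain, since its coding sequence is 92.2% identical to that of SSF2 over its whole length and reads could be split between them. SSF1 was at 128, 141 and 127 CPM in root libraries, against 38.3, 130 and 46.1 CPM in aerial libraries (log2 fold change 0.89, standard error 0.41, edgeR adjusted p = 0.131). The value of SSF2 was 0.49 (standard error 0.35, edgeR adjusted p = 0.313). The 2 genes together were at 176, 198 and 177 CPM in root libraries, against 59.7, 191 and 73.6 CPM in aerial libraries, and again aerial replicate 2 was inside the root range.

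The Noc proteins are needed for precursors to move from the nucleolus to the nucleoplasm. NOC2 and NOC3 were called, at log2 fold changes of 1.46 and 1.25, and MAK21, also known as NOC1, was at 1.12 with an edgeR adjusted p of 0.0654. Of the 3 remaining nucleolar factors only NSA2 was called (log2 fold change 1.25, edgeR adjusted p = 0.0374). EBP2 was at 116, 119 and 113 CPM in root libraries, against 19.4, 113 and 29.8 CPM in aerial libraries (log2 fold change 1.09, standard error 0.54, edgeR adjusted p = 0.156). NOP16 was at 26.3, 29.9 and 27.2 CPM in root libraries, against 5.93, 32.7 and 11.1 CPM in aerial libraries (log2 fold change 0.74, standard error 0.50, edgeR adjusted p = 0.295). In both EBP2 and NOP16 aerial replicate 2 was in or above the root range and aerial replicate 1 was lowest. Without aerial replicate 2 both were called, at 2.23 and 1.70.

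The 6 factors that accompany the particle out of the nucleus or are recycled in the cytoplasm were all called, with a median log2 fold change of 1.46. NMD3, the export adaptor, was at 428, 452 and 440 CPM in root libraries, against 109, 250 and 110 CPM in aerial libraries (log2 fold change 1.49, standard error 0.33, edgeR adjusted p = 0.00993). ARX1, a second export factor, was at 410, 418 and 403 CPM in root libraries, against 77.9, 225 and 69.4 CPM in aerial libraries (log2 fold change 1.72, standard error 0.42, edgeR adjusted p = 0.0147). REI1, whose product releases Arx1 in the cytoplasm, was at 171, 182 and 181 CPM in root libraries, against 50.6, 130 and 43.7 CPM in aerial libraries (log2 fold change 1.25, standard error 0.38, edgeR adjusted p = 0.0338). Root and aerial libraries did not overlap for these export genes. MRT4 and RLP24 encode proteins that keep the place of a ribosomal protein until the cytoplasm. MRT4 was at 204, 206 and 183 CPM in root libraries, against 23.6, 118 and 34.2 CPM in aerial libraries (log2 fold change 1.75, standard error 0.52, edgeR adjusted p = 0.0316). RLP24 was at 232, 230 and 200.0 CPM in root libraries, against 39.7, 151 and 54.3 CPM in aerial libraries (log2 fold change 1.43, standard error 0.44, edgeR adjusted p = 0.0357).

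TIF6 (chromosome XVI, 592332 to 593069), whose product keeps the large subunit from joining the small one too early, differed from the others in its aerial libraries. It was at 489, 448 and 482 CPM in root libraries, against 255, 216 and 212 CPM in aerial libraries. Its log2 fold change of 1.06 was among the smaller ones but had the smallest standard error of the 42, at 0.19 (edgeR adjusted p = 0.00404). Aerial replicate 2 lay 0.10 below the mean of the 2 other aerial libraries on the log2 scale, while the 41 other genes had positive differences, up to 2.23 for EBP2. The log2 fold change of TIF6 without aerial replicate 2 was 1.02.

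Per length of coding sequence, TIF6 also had the highest level of the 42 genes, at 641 CPM per kb in root and 308 CPM per kb in aerial libraries. NOG1 followed in root libraries at 587 CPM per kb, and NOP8 was lowest at 22.4 CPM per kb in root and 8.12 CPM per kb in aerial libraries. The median gene was at 160 CPM per kb in root and 65.1 CPM per kb in aerial libraries.

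**Figure D4:**
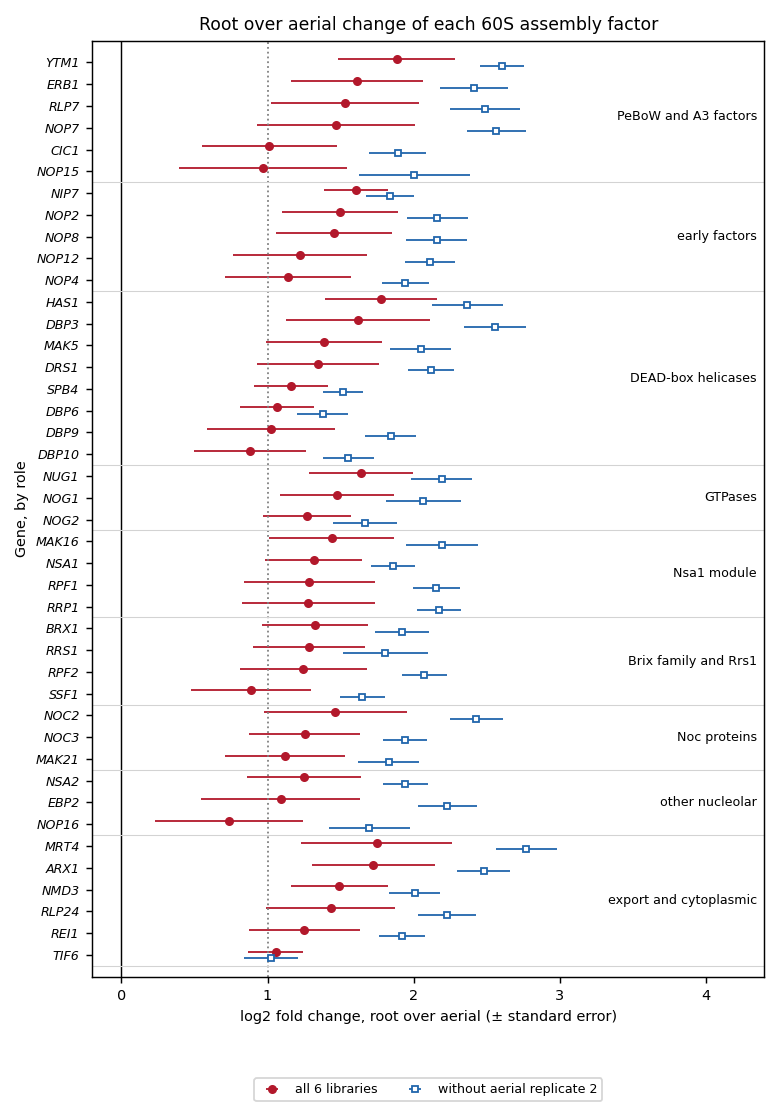
Log2 fold change, root over aerial, with its standard error for each of the 42 assembly factors, grouped by role, from all 6 libraries (filled circles) and without aerial replicate 2 (open squares). The dotted line is a 2-fold difference, and without aerial replicate 2 all values lie between 1.02 and 2.77.

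Further genes of the pathway were read in the same way. Of 48 other factors of large-subunit assembly and export, 46 had a higher mean in root cells. By edgeR 23 were called higher and 0 lower, against 10.8% and 9.2% of all loci. The median was 1.12, and 35 were higher at an unadjusted p under 0.05, against the 21.4% of all loci. DESeq2 called 29 of them higher, and the share of all loci that it called is not given here. The largest values were those of SQT1 (1.72, edgeR adjusted p = 0.00326), whose product is a chaperone of a ribosomal protein, and YVH1 (1.69, edgeR adjusted p = 0.00247), whose product releases Mrt4. The smallest were those of the general export receptor CRM1 (-0.17, edgeR adjusted p = 0.552) and of REH1 (-0.05, edgeR adjusted p = 0.891), a relative of REI1. Without aerial replicate 2, 41 of the 48 were called higher, against 13% of all loci, with a median of 1.78. Of 61 factors of the small-subunit processome and of small nucleolar ribonucleoproteins, 43 were called higher in root cells, against 10.8% of all loci. Their median was 1.31, and without aerial replicate 2 all 61 were called, against 13% of all loci. NOP1 (2.47), which encodes the methyltransferase fibrillarin, and GAR1 (2.24) had the largest values, and LCP5 (0.52) and UTP22 (0.94) the smallest. Differences between these lists were not tested.

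A pair of neighbours on chromosome V shares an upstream region of 301 bases (414180 to 414480). NSA2, one of the 42 genes, is read from one side and LCP5, a processome factor, from the other. NSA2 was at 200.0, 201 and 181 CPM in root libraries, against 51.5, 143 and 49.3 CPM in aerial libraries. LCP5 was at 60.1, 67.6 and 62.8 CPM in root libraries, against 23.0, 80.3 and 29.1 CPM in aerial libraries, and had the smallest log2 fold change of the 61 processome genes (0.52, standard error 0.41, edgeR adjusted p = 0.36). Aerial replicate 2 was below the root libraries for NSA2 and above them for LCP5.

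Promoter motifs were then set against the fold changes of genes outside the 42. Of 300 other tested genes with both PAC and RRPE, 258 had a higher mean in root cells, against 3842 of all 7971 loci tested. Of the 300, 135 (45%) were called higher, against 10.8% of all loci, and 2 lower, against 9.2%. Their median log2 fold change was 1.06, and they still included further 60S and processome factors. When the 48 further 60S factors and the 61 processome factors were also left out, 227 genes with both motifs had a median of 0.83, and 84 (37%) of them were called higher. With the same factors left out, the median was 0.041 over 760 genes with PAC alone, 0.34 over 489 with RRPE alone and -0.13 over 4035 with neither, of which 7.98% were called higher. Within the 42, the 36 genes with both motifs had a median of 1.34, the 5 with PAC alone 1.25, and NSA1, with RRPE alone, 1.32. These are descriptions across genes, which are not independent replicates.

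Transcripts of the proteins known to act on these promoters were looked up singly. TOD6, which encodes a repressor that binds PAC, was at 99.0, 113 and 105 CPM in root libraries, against 33.1, 64.9 and 26.6 CPM in aerial libraries, and was called higher, with a 2.54-fold difference (edgeR adjusted p = 0.0115). Its paralogue DOT6 was at 177, 183 and 194 CPM in root libraries, against 217, 187 and 169 CPM in aerial libraries (log2 fold change -0.05, edgeR adjusted p = 0.865). STB3 was lower in root cells, at 67.0, 77.0 and 68.6 CPM in root libraries, against 112, 116 and 99.4 CPM in aerial libraries (log2 fold change -0.62, standard error 0.16, edgeR adjusted p = 0.0193), and did not reach a 2-fold difference. The groups did not overlap for TOD6 and STB3, and they did for DOT6. The activator SFP1, which promotes transcription of the regulon, was at 133, 160 and 153 CPM in root libraries, against 255, 183 and 159 CPM in aerial libraries (log2 fold change -0.42, edgeR adjusted p = 0.176). SCH9, a kinase that acts on the repressors, was at 371, 420 and 406 CPM in root libraries, against 348, 294 and 227 CPM in aerial libraries (log2 fold change 0.46, edgeR adjusted p = 0.133). The groups overlapped for SFP1 and did not for SCH9, which missed the threshold.

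Noncoding loci that carry the name of one of the 42 genes were few. The antisense locus of RRP1 was at 3.25, 6.02 and 3.52 CPM in root libraries, against 7.18, 4.14 and 6.44 CPM in aerial libraries (log2 fold change -0.46, edgeR adjusted p = 0.301). The locus COR272WTs2, named after YTM1, was at 14.9, 6.14 and 13.2 CPM in root libraries, against 49.5, 8.97 and 7.96 CPM in aerial libraries (log2 fold change -0.95, edgeR adjusted p = 0.311). Root and aerial libraries overlapped at both, and a locus named after RLP7 had too few counts to be tested.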

How the data were processed

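RNA depleted of rRNA was made into strand-specific libraries and sequenced as paired-end reads. The authors mapped the reads to SacCer3 (R64) with TopHat, version 2.0.14 per the submitters' processing notes. Reads per locus were then counted by strand with featureCounts, and the deposited counts are raw. How reads matching several loci were counted is not given in the sources used here. All 6 columns of values were used. An unnamed line with 2 to 6 counts per library was excluded.

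The analysis used R 4.3.3 and edgeR 4.0.16. Loci passing filterByExpr were scaled by TMM (factors 0.871 to 1.09), and root was set against aerial by the quasi-likelihood F test with Benjamini-Hochberg adjustment. The standard error is the log2 fold change over the root of F. The log2 CPM values used a prior count of 2. The procedure was also run on simulated data, with an outcome that is not given here. No library was shifted across a gene list in that simulation, so it cannot speak to aerial replicate 2. Alternatives were DESeq2 1.42.0 with and without shrunken fold changes, other scalings, filters and cutoffs, the replicate number as a block, and each library left out. Coding sequences were compared with BLAST 2.17.0. Sequences, positions and symbols are from RefSeq (R64), where all 42 identifiers matched. Protein sequences, and a planned search in them, were not used here.

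The genes, lists and tests were chosen with earlier results of these data known. Values by library are given for the 3 largest and 3 smallest fold changes, the Nop7 trimer, the GTPases, RPF2 and RRS1, the export and cytoplasmic factors, helicases by fold change and the uncalled genes with the highest adjusted p. In other lists the 2 genes at each end and all regulators are named. The values of NIP7, NOP2, RLP7 and NSA2, the neighbouring genes, the RPL list (taken by symbol) and the motif distances were added after values were seen.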

Additional observations from a re-analysis of the deposited data

How the results depend on the processing

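All 42 assembly factors kept a positive log2 fold change, and 0 were called lower, in every alternative run. With library sizes alone in place of TMM, the count called higher moved to 17 in place of 28, and the count past adjusted p with no fold cutoff also moved to 17 in place of 28. DESeq2 called 36, the 28 included, and 35 with shrunken fold changes. Of the scalings tried, upper quartile moved the median of all loci most, to -0.09. Leaving out a library gave 9 to 42 calls (10 to 42 by adjusted p alone) and a median log2 fold change of 1.06 to 2.06, highest without aerial replicate 2. For the other 60S factors these fits gave 9 to 41 calls and medians of 0.87 to 1.78, and for the processome factors 21 to 61 calls. Genes outside the 42 with fold changes near 0 changed sign when a library was left out, with log2 ranges of -0.13 to 0.059 for DOT6, -0.22 to 0.21 for REH1, -0.061 to 0.52 for LAS1 and -0.14 to 0.28 for MTR2. The cause of these changes was not tested.

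The labels do not say whether same-numbered libraries were paired. Their deviations from the group means correlated at -0.14, 0.14 and -0.044, which with 3 libraries per cell type cannot settle it. With the replicate block, 41 of the 42 assembly factors were called, 34 of the other 60S factors and 60 of the processome factors, with a median of 1.55 over the 42. Shares of all loci called with the block, with DESeq2 and with the other scalings are not given here. The counts of calls in those runs therefore have no background beside them.

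The standard error had a median of 0.41 over the 42 genes and 0.25 over all loci tested. Each of the 42 genes had at least 71 counts in every library.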
